A study of Mus musculus with 12 samples.

Results

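The 39 Hox genes of clusters A to D were described across 12 Affymetrix mouse genome arrays (MOE430_2). Members were all probe sets whose only gene symbol in the platform annotation was a Hox gene of these clusters, which gave 48 of 45101 probe sets and 33 of the 39 genes. Wild-type LSK cells were on arrays 1 to 3, FoxO-deficient LSK cells on arrays 4 to 6, wild-type myeloid progenitors on arrays 7 to 9 and FoxO-deficient myeloid progenitors on arrays 10 to 12. LSK cells, the marrow fraction without lineage markers that is positive for Sca-1 and Kit, hold the hematopoietic stem cells, and myeloid progenitors are their more restricted descendants. Mice of all 4 groups carried loxP-flanked FoxO1, FoxO3 and FoxO4 (FoxO1/O3/O4LoxP/LoxP). The deficient groups also carried Mx-Cre, a recombinase under an interferon-inducible promoter, and the wild-type groups lacked it, so a difference called FoxO here includes any effect of the transgene. Cells came from pooled mice, and the labels used here give no ages, no sort markers of the myeloid progenitors and no details of induction. Amplification and labelling were done in triplicate, and whether the 3 arrays within a group stand for 3 pools or for 1 is not given, so a p-value here reflects the spread among arrays, which may be technical. The study asked how the loss of the FoxO factors changes genes of reactive oxygen species metabolism, and the Hox genes are outside that question.

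Hox genes encode homeodomain transcription factors. Each cluster is a row of genes read in the same direction, numbered by paralogue from the 3′ end, and neighbours are often active together. In blood, stem and progenitor cells express mainly genes of clusters A and B, which decline as cells mature. Hoxa9 with the cofactor Meis1 is known for driving leukaemia when its expression persists, Hoxb4 for expanding stem cells in culture, and the methyltransferase Kmt2a for keeping Hox genes active.

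Values are quantile-normalized intensities, and a log2 change is a difference between group means of log2 values with the standard error (SE) of a limma fit to all arrays. The mean deposited intensity per array lay between 119 and 190.2. Array 2, of wild-type LSK cells, had a Gapdh 3′ over 5′ ratio of 344, a sign of degraded RNA, against 1.77 to 2.37 on the other 11 arrays, and values without it are given beside the results it moves most. Foxo4 was lower in the deficient groups, with LSK means of 393 in wild-type and 85.8 in deficient cells (-2.20 ± 0.19 on the log2 scale, limma adjusted p = 0.00162) and myeloid progenitor means of 329.8 and 59.9 (-2.46, adjusted p = 0.000114). The LSK means of Foxo1 were 104 for wild-type and 27.2 for deficient arrays, and its myeloid progenitor means 23.4 and 12.5, without a call (adjusted p = 0.263 and 0.609). For Foxo3 the deficient means were the higher ones, at 2828 against 2421 and at 2414 against 1860.3, also without a call (adjusted p = 0.561 and 0.299), and whether their probe sets lie in the deleted part of each gene was not examined here. All 9 LSK markers with a probe set of their own were above background on all 3 arrays of both LSK groups, and all 10 myeloid progenitor markers on all 3 arrays of both myeloid progenitor groups. These counts alone do not separate the cell types. In each myeloid progenitor group 7 of the 9 LSK markers were also above background. Of the 10 myeloid progenitor markers, 9 were so in wild-type and 8 in deficient LSK cells. The defining LSK marker Ly6a, which encodes Sca-1, had no probe set of its own.

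Few Hox genes gave signal, and those that did were mostly of clusters A and B. A probe set was counted as above background on an array if it exceeded all 27 low-signal control probe sets for bacterial transcripts there. This limit was 7.38, 10.7 and 7.33 on arrays 1 to 3 and 6.68, 5.14 and 9.48 on arrays 4 to 6. On arrays 7 to 9 it was 11.6, 6.73 and 13.0, and on arrays 10 to 12 it was 8.74, 9.04 and 10.1. A dim gene at like levels in 2 groups can therefore count as above background in only 1 of them. A gene was above background in a group if 1 of its probe sets was so on all 3 arrays. By this measure 11 of 33 Hox genes (33.3%) were above background in wild-type LSK cells, 11 in FoxO-deficient LSK cells, 7 (21.2%) in wild-type myeloid progenitors and 7 in FoxO-deficient myeloid progenitors. Of 18193 genes with a probe set of their own, 55.1%, 57.9%, 51.9% and 54% were. In cluster A on chromosome 6, 7 of 9 genes were above background in at least 1 group, in cluster B on chromosome 11 3 of 9, in cluster C on chromosome 15 3 of 7 and in cluster D on chromosome 2 1 of 8. Hoxa3, Hoxa9, Hoxa10, Hoxb3 and Hoxb4 were above background in all 4 groups.

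**Figure D1:**
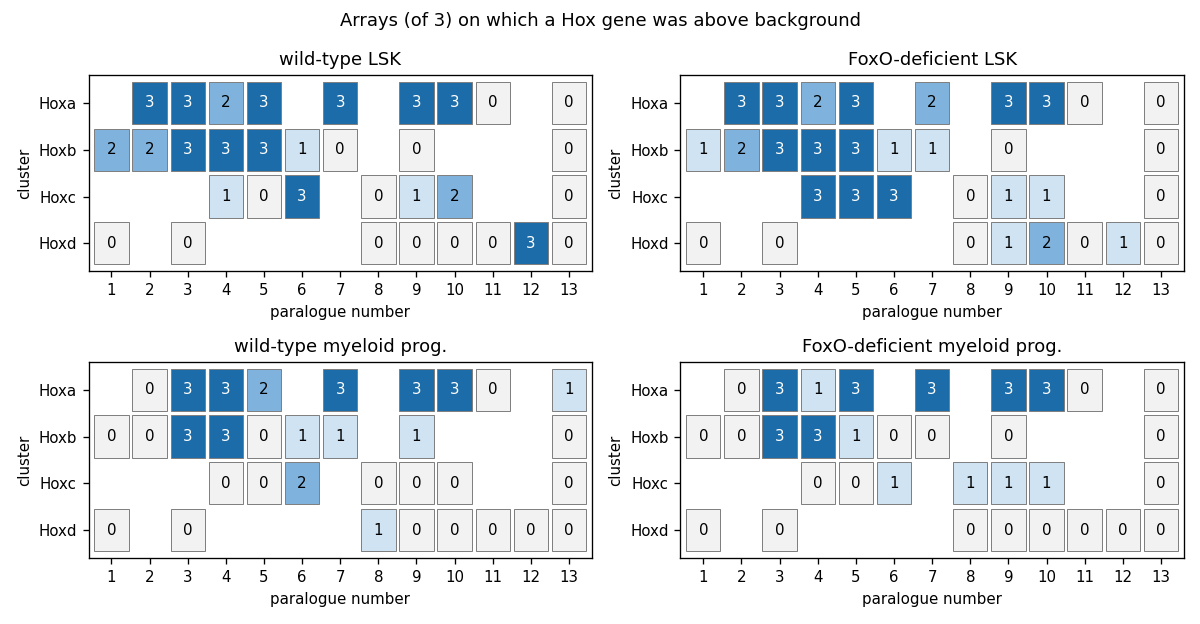
Each square is a Hox gene, with clusters in rows and paralogue numbers in columns, and the digit is the number of arrays (of 3) on which a probe set of the gene was above background. Darker blue marks more arrays, and a blank is a paralogue that the cluster lacks or that was not analysed here. Full signal (3) lies mostly in clusters A and B, with 11 genes in each LSK group and 7 in each myeloid progenitor group. The background limit differs between arrays.

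By position along the clusters, genes of paralogue numbers 4 and 5 were above background in at least 1 group in 3 of 3 cases each, and those of number 3 in 2 of 3. Numbers 2, 6 and 7 had 1 of 2 each, and number 12 had 1 of 1, the dim Hoxd12. For numbers 1, 8, 11 and 13 the counts were 0 of 2, 0 of 2, 0 of 2 and 0 of 4. At number 9 it was Hoxa9 alone of 4 genes, and at number 10 Hoxa10 alone of 3. Cluster A thus gave signal at both its 3′ and its 5′ side, from Hoxa2 to Hoxa10, while Hoxa11 and Hoxa13 were not above background on all 3 arrays of any group. The 6 genes without a probe set of their own were not analysed here. Another 14 genes had only probe sets under the filter, which kept probe sets above the 40th percentile of their array on at least 3 arrays. Their values over the 12 arrays lay between 0.716 and 22.1, and the highest was that of Hoxd10 on array 4.

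Between cell types, the main Hox genes were lower in myeloid progenitors. Of the 19 Hox genes that could be tested, 7 fell from wild-type LSK cells to wild-type myeloid progenitors and none rose, among them Hoxa5 by 12.8-fold, Hoxa10 by 10.9-fold and Hoxa9 by 3.64-fold. Of all 13732 genes tested, 21.4% were called in either direction with 11.5% lower and 9.95% higher (limma, adjusted p under 0.05 after Benjamini-Hochberg adjustment over all genes). The 7 were 5 of the 7 genes tested in cluster A (Hoxa2, Hoxa3, Hoxa5, Hoxa9 and Hoxa10) and 2 of 6 in cluster B (Hoxb3 and Hoxb5), with 0 of 5 in cluster C and 0 of 1 in cluster D. The median log2 change was -1.17 over the Hox genes tested and 0.02 over all genes. A gene that was bright in 1 group only passed the filter through that group, so all 33 were also fitted without a filter: 7 were called, with a median of -0.40 against 0.02 for all 18193 genes, of which 13.2% were called. In these bulk samples, fewer cells that express a gene and less of its RNA per cell cannot be told apart.

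Hoxa9, the Hox gene most studied in leukaemia, read 941, 1459 and 1003 in wild-type LSK cells and 336, 290.5 and 292 in wild-type myeloid progenitors. In FoxO-deficient cells it read 1103, 909 and 1179 on the LSK arrays and 477, 427 and 287 on the myeloid progenitor arrays. Every LSK array was above every myeloid progenitor array. The log2 change was -1.86 ± 0.24 in wild-type cells (adjusted p = 0.000527) and -1.45 ± 0.24 in deficient cells (adjusted p = 0.00231). Its second probe set fell likewise, by log2 changes of -1.81 and -1.85 (adjusted p = 0.0188 and 0.0157 over all 31779 probe sets kept).

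Hoxa10 is the 5′ neighbour of Hoxa9 and a factor of early myeloid development. It read 693, 118 and 722 in wild-type LSK cells, 463, 531 and 494 in deficient LSK cells, 44.5, 35.3 and 29.5 in wild-type myeloid progenitors and 30.7, 32.5 and 32.1 in deficient ones. All 6 LSK arrays were above all 6 myeloid progenitor arrays, and array 2 was far below the other wild-type LSK arrays. The log2 change was -3.44 ± 0.57 in wild-type cells (adjusted p = 0.00245), or -4.29 without array 2, and -3.96 ± 0.57 in deficient cells (adjusted p = 0.00108).

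Hoxa5, from the middle of the cluster, was high in LSK cells and close to background in myeloid progenitors. It read 133, 289 and 150.3 in wild-type LSK cells, 83.2, 70.8 and 85.3 in deficient LSK cells, 19.2, 12.6 and 11.4 in wild-type myeloid progenitors and 11.8, 20.4 and 16.7 in deficient ones. The wild-type LSK arrays were highest, the deficient LSK arrays next, and the myeloid progenitor groups overlapped. Hoxa5 fell by a log2 change of -3.68 ± 0.33 in wild-type cells (adjusted p = 7.6e-05) and -2.33 ± 0.33 in deficient cells (adjusted p = 0.000984). In wild-type myeloid progenitors it exceeded the limit on 2 of 3 arrays. Its second probe set fell too, by -2.11 and -1.57 (adjusted p = 0.00473 and 0.0184).

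Hoxa3, a patterning gene of the pharyngeal arches in the embryo, read 126, 68.2 and 156 in wild-type LSK cells, 115, 134 and 156 in deficient LSK cells, 33.4, 28.3 and 19.9 in wild-type myeloid progenitors and 39, 25.5 and 27.4 in deficient ones. The cell types did not overlap. Its log2 change was -2.05 ± 0.33 in wild-type cells (adjusted p = 0.00195) and -2.16 ± 0.33 in deficient cells (adjusted p = 0.00146). Both calls rest on 1 probe set, of a kind whose probes can match several transcripts. The dimmer Hoxa3 probe sets that were kept did not pass: 1 had differences of -1.15 and -2.22 (adjusted p = 0.432 and 0.127) and the other of -0.06 and 0.54 (adjusted p = 0.969 and 0.714). Another 1 was under the filter.

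Hoxa2, which patterns the hindbrain, read 24.2, 36.7 and 19.5 in wild-type LSK cells and 14, 13.4 and 14.3 in deficient LSK cells. In myeloid progenitors it was not above background on any array, at 3.35, 5.05 and 6.69 in wild-type and 2.00, 2.67 and 0.8 in deficient cells. The fall is therefore a bound, at least 2.58-fold in wild-type cells and at least 1.49-fold in deficient cells. The limma test was not of these bounds. It was of the full log2 changes, -2.42 in wild-type cells (adjusted p = 0.00371) and -3.10 in deficient cells (adjusted p = 0.00093). For these bounds, each array of the dimmer group entered with its background limit, or with its own value where that was higher.

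In cluster B, Hoxb3 read 151, 239 and 201 in wild-type LSK cells, 109, 95.2 and 133 in deficient LSK cells, 49.1, 68.8 and 28.6 in wild-type myeloid progenitors and 39.2, 35.5 and 40.3 in deficient ones. Both LSK groups lay above both myeloid progenitor groups. The log2 change was -2.08 ± 0.31 in wild-type cells (adjusted p = 0.00124) and -1.54 ± 0.31 in deficient cells (adjusted p = 0.00634). A second Hoxb3 probe set fell in wild-type cells (-1.85, adjusted p = 0.0151) and did not pass in deficient cells (-0.99, adjusted p = 0.141).

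Hoxb4, next to Hoxb3, read 39.1, 125 and 58.1 in wild-type LSK cells, 59.98, 39.3 and 42.6 in deficient LSK cells, 35.1, 29.8 and 30.4 in wild-type myeloid progenitors and 26.4, 26.4 and 38.1 in deficient ones. The cell types did not overlap within a genotype, yet neither change passed, at -1.05 ± 0.38 (adjusted p = 0.0768) and -0.64 ± 0.38 (adjusted p = 0.283). The first passed without wild-type LSK array 1 (-1.44, adjusted p = 0.0193) and with a 60th-percentile filter (adjusted p = 0.0478), and it was -0.59 without array 2 (adjusted p = 0.111). The second passed with array weights alone (-0.67, adjusted p = 0.035). A dimmer Hoxb4 probe set changed by -1.08 and -0.84, and neither passed (adjusted p = 0.394 and 0.53).

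Hoxb5, known to mark long-term stem cells in the mouse, read 15.2, 80.6 and 29.0 in wild-type LSK cells, 8.50, 15.7 and 10.5 in deficient LSK cells, 7.57, 1.01 and 0.990 in wild-type myeloid progenitors and 12.1, 0.716 and 3.46 in deficient ones. In wild-type myeloid progenitors no array was above background, and Hoxb5 fell at least 3.28-fold. The limma test was of the full log2 change of -4.06 ± 1.10 (adjusted p = 0.026). Hoxb5 no longer passed when array 2 or array 3 was left out (adjusted p = 0.0609 and 0.052), when array 8 or array 9 was left out (adjusted p = 0.0863 and 0.0895), or when the fit held the 6 wild-type arrays alone (adjusted p = 0.0664). In deficient cells its change of -1.85 ± 1.10 did not pass (adjusted p = 0.284), with 1 myeloid progenitor array above background.

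**Figure D2:**
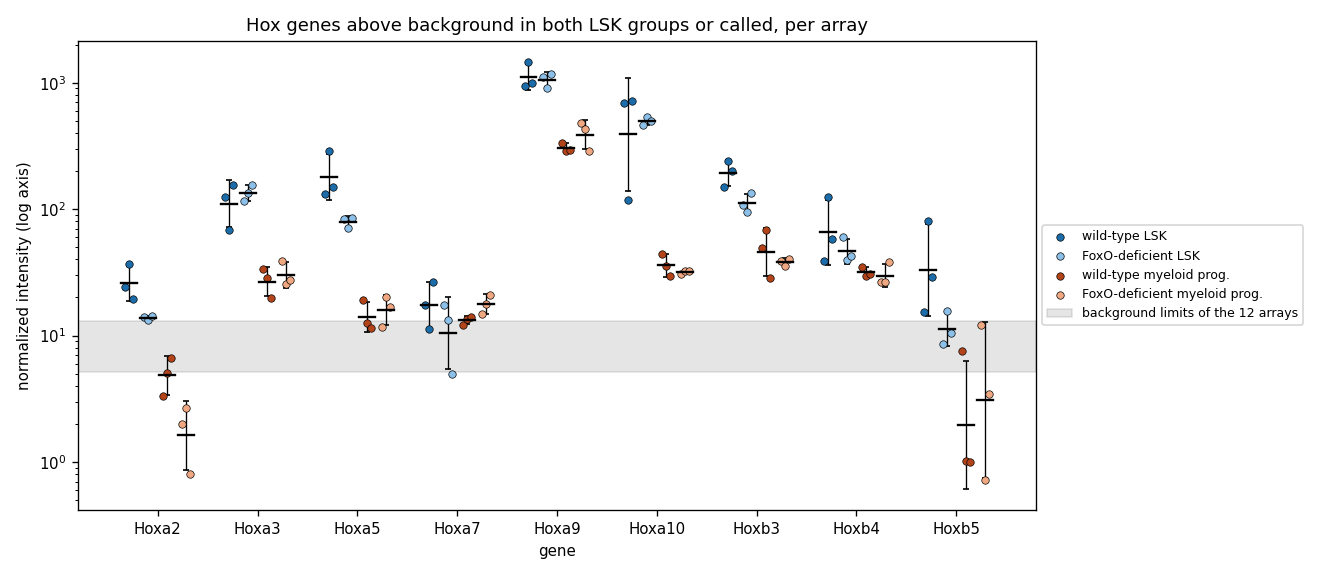
Points are the normalized intensities (log axis) of Hox genes on single arrays, coloured by group, with the bar at the antilog of the mean log2 value and whiskers of 1 SD of the 3 log2 values. The grey band spans the background limits of the 12 arrays (5.14 to 13.0), and levels of different genes are not comparable. The LSK arrays of Hoxa3, Hoxa5, Hoxa9, Hoxa10 and Hoxb3 lie above all myeloid progenitor arrays, and those of Hoxa7 do not.

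Hoxa7 was above background without following this order, at 17.6, 11.3 and 26.4 in wild-type LSK cells, 17.4, 13.4 and 4.96 in deficient LSK cells, 12.1, 13.5 and 14 in wild-type myeloid progenitors and 14.9, 17.9 and 21.1 in deficient ones. The cell types overlapped, and the log2 changes of -0.40 ± 0.45 and 0.76 ± 0.45 did not pass (adjusted p = 0.584 and 0.28). Hoxa4 was above background on all 3 arrays of wild-type myeloid progenitors only, at 12.4, 11.4 and 13.7, against 1.66, 7.80 and 13.0 in wild-type LSK cells, 12.7, 4.36 and 15.5 in deficient LSK cells and 5.35, 15.5 and 6.27 in deficient myeloid progenitors. Its change of 1.17 ± 0.75 did not pass (adjusted p = 0.309), and its second probe set changed by -0.04.

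The other Hox genes above background in some group were all close to the limit. Hoxc6 read 10.8, 22.8 and 10.3 in wild-type LSK cells, 12.2, 16.4 and 11.2 in deficient LSK cells, 12.2, 9.39 and 7.37 in wild-type myeloid progenitors and 7.18, 4.32 and 13.5 in deficient ones, so the cell types overlapped. Hoxc4 read 14.5, 8.66 and 13.4 in deficient LSK cells, above background on all 3 arrays there, against 4.96, 1.95 and 9.32 in wild-type LSK cells, 1.30, 1.28 and 0.883 in wild-type myeloid progenitors and 1.38, 7.81 and 4.34 in deficient ones. Its LSK arrays were above its myeloid progenitor arrays within each genotype, without a call (adjusted p = 0.0617 and 0.104). Without wild-type LSK array 2, Hoxc4 was called in both genotypes while the wild-type call of Hoxb5 was lost, so the counts were 7 and 7 there. Hoxc5 read 7.84, 8.66 and 10.1 in deficient LSK cells, the only group where it was above background on all 3 arrays, against 2.27, 8.65 and 6.63 in wild-type LSK cells, 11.6, 5.05 and 7.77 in wild-type and 1.49, 8.21 and 10.1 in deficient myeloid progenitors. The limit had a part in this, since 8.66 on array 5 exceeded 5.14 and 8.65 on array 2 did not exceed 10.7. Hoxd12, of the 5′ end of cluster D, read 13.0, 22.4 and 9.13 in wild-type LSK cells, its only group above background on all 3 arrays, against 1.27, 8.46 and 5.33 in deficient LSK cells, 7.05, 3.94 and 8.45 in wild-type and 7.67, 4.12 and 3.84 in deficient myeloid progenitors.

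Most of these calls were shared by FoxO-deficient cells. Of 19 Hox genes tested, 6 were lower in deficient myeloid progenitors than in deficient LSK cells and 0 higher, where 19.6% of all genes tested were called in either direction, 9.39% lower and 10.2% higher. These 6 (Hoxa2, Hoxa3, Hoxa5, Hoxa9, Hoxa10 and Hoxb3) were 85.7% of the 7 called in wild-type cells, and the wild-type and deficient comparisons share no arrays but 1 estimate of the spread. The median log2 change over the 19 tested was -0.82, against 0.11 over all genes. Groups did not overlap for 11 Hox genes in wild-type cells, all lower in myeloid progenitors (17.6% of all genes tested), and for 9 in deficient cells, all lower (22.4%), while 18.2% and 30% of all genes tested lay apart with myeloid progenitors higher.

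**Figure D3:**
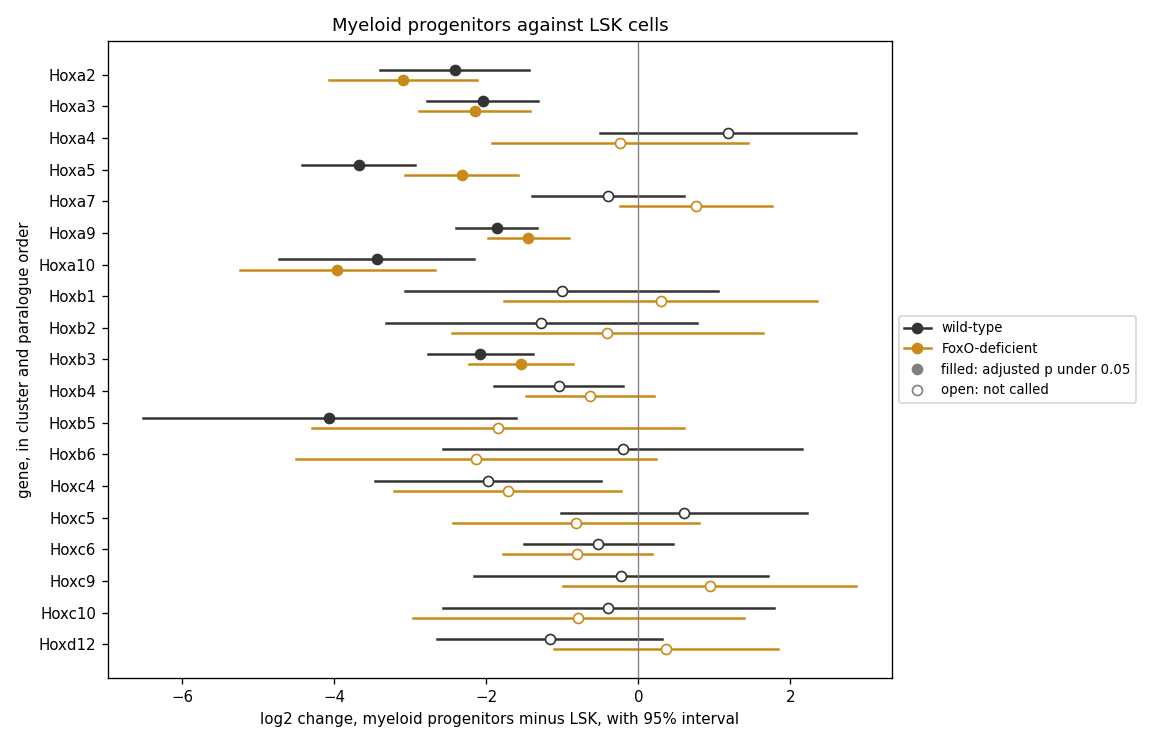
Points are log2 changes from LSK cells to myeloid progenitors for the 19 Hox genes tested, with lines for the 95% interval, in wild-type (dark) and FoxO-deficient (ochre) cells. Filled points passed the test, 7 in wild-type and 6 in deficient cells, all below 0, and the changes at the ends of the order (clusters C and D) have wide intervals that reach 0 or lie near background.

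The 5 cluster A genes called lower in both genotypes lie within 1 stretch of chromosome 6 on the minus strand. They are not an unbroken block, since Hoxa4 and Hoxa7, numbered between them, were tested and not called in either genotype. Sequences before the transcript start are shown for the 5 called genes. Promoter windows of RefSeq (GRCm38.p6) were matched for 22 of the 39 Hox genes, with 24 windows, and each holds the 250 bases before a start, written 5′ to 3′ on the gene's strand (minus). Capitals mark matches on either strand to TGACAG (bound by Meis and Pknox proteins), TGATTNAT (a joint site of Pbx and Hox proteins), CCAAT (the CCAAT box), TATAAA (the TATA box) or GTAAACA (the FoxO site). Where matches adjoin, the capitals run on.
Hoxa2, chr6:52164832-52165081: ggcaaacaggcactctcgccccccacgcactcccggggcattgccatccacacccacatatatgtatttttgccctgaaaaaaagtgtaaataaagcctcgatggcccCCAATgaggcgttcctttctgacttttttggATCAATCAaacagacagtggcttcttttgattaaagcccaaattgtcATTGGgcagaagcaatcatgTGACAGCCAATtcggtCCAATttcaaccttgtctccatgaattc
Hoxa3, chr6:52213068-52213317: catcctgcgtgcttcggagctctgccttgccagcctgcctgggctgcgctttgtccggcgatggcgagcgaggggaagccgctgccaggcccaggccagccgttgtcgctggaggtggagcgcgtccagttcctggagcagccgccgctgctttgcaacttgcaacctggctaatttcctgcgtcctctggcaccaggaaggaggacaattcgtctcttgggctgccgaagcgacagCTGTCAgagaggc
Hoxa5, chr6:52204588-52204837: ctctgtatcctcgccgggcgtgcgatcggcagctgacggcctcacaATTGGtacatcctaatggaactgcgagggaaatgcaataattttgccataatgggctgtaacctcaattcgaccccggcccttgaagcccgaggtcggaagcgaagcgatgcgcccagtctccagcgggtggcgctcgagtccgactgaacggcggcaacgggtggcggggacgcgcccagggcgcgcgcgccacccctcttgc
Hoxa9, chr6:52227371-52227620: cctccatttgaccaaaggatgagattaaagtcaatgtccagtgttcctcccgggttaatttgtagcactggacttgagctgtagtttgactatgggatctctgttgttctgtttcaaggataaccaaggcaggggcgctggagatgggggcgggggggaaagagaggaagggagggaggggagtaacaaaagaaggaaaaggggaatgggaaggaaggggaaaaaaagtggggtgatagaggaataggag
Hoxa10, chr6:52234940-52235189: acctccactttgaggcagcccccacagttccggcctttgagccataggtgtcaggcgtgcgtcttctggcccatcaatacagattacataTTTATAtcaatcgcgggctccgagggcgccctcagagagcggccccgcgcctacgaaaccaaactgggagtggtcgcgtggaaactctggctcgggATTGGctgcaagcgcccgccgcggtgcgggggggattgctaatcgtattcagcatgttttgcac
Hoxa2 held 1 TGACAG, 1 TGATTNAT (as ATCAATCA on this strand) and 4 CCAAT matches, with TGACAG and a CCAAT side by side, and Hoxa3 held 1 TGACAG match as CTGTCA. The Hoxa3 window lies 5′ of the Hoxa5 and Hoxa6 windows, so it belongs to a distant start. No Hoxa3 window at a start between Hoxa2 and Hoxa5 was matched. Hoxa5 held 1 CCAAT match, the Hoxa10 window shown (1 of 2 starts) 1 CCAAT and 1 TATAAA match, and Hoxa9 none. Over 24 Hox windows, TGACAG matched in 2, against 15.9% of 32851 windows of all genes. TGATTNAT matched in 2 (2.82% of all windows), CCAAT in 14 (33.8%), TATAAA in 4 (12.4%) and GTAAACA in 0 (3.17%). The GC content of the Hoxa2 window was 46.4%, of Hoxa9 49.6%, of Hoxa10 59.2%, of Hoxa5 63.6% and of Hoxa3 64.8%. A match to such letters describes the sequence and shows no binding, and their absence from these windows says nothing of the factor.

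FoxO deficiency gave no call among the Hox genes of LSK cells. Of 19 tested, 0 passed (limma, smallest adjusted p = 0.238), where 0.269% of all genes tested did, and 3 had an unadjusted p under 0.05: Hoxa5, Hoxb3 and Hoxd12. Hoxa9 differed by a log2 change of -0.07, with a 95% interval from -0.61 to 0.46, Hoxa10 by 0.35 (-0.94 to 1.63) and Hoxa3 by 0.28 (-0.45 to 1.02). These intervals allow changes of up to 1 log2 unit or more in Hoxa3 and Hoxa10, so a p that misses the threshold does not show equal levels.

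Deficient and wild-type LSK arrays did not overlap for 4 of the 19 genes, Hoxa2, Hoxa5, Hoxb3 and Hoxd12, all lower in deficient cells, where 9.06% of all genes tested lay so. Hoxa5, with means of 179 and 79.5, changed by -1.17 ± 0.33 (adjusted p = 0.238), and by -0.83 without array 2, its highest wild-type array (adjusted p = 0.201). Its second probe set changed by -0.55 (adjusted p = 0.6). Hoxb3, with means of 194 and 111, changed by -0.80 ± 0.31 (adjusted p = 0.378), while its second probe set changed by 0.14. Hoxa2, with means of 25.9 and 13.9, changed by -0.90 ± 0.44 (adjusted p = 0.473). Hoxd12 changed by -1.85 ± 0.66 (adjusted p = 0.348), with 1 of 3 deficient arrays above background. Of the 14 genes above background in some group, array 2 was the highest wild-type LSK array for Hoxa2, Hoxa5, Hoxa9, Hoxb3, Hoxb4, Hoxb5, Hoxc5, Hoxc6 and Hoxd12 and the lowest for Hoxa3, Hoxa7, Hoxa10 and Hoxc4, and the part of its RNA quality in these values was not tested. The wild-type LSK arrays are the same ones that stand in the wild-type comparison of cell types.

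In myeloid progenitors, FoxO deficiency likewise gave 0 calls among 19 Hox genes (limma, smallest adjusted p = 0.124), where 1.84% of all genes tested passed (1.09% lower and 0.757% higher), and 2 had an unadjusted p under 0.05, Hoxa2 and Hoxc4. Both were below background in the wild-type and the deficient group. Hoxa2 would be called with array weights, at a level not above background on any of these 6 arrays. Hoxa9 changed by 0.34, with a 95% interval from -0.19 to 0.88, Hoxa3 by 0.18 (-0.56 to 0.91) and Hoxb3 by -0.26 (-0.95 to 0.43). Deficient arrays lay above wild-type arrays for 2 Hox genes, Hoxa7 and Hoxc4 (18.2% of all genes tested), and below for Hoxa2 alone (12.6%). Hoxa7 had means of 13.2 and 17.8, with a change of 0.43 ± 0.45 (adjusted p = 0.817).

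The test of whether the FoxO effect differed between the cell types called 0 of 19 Hox genes and 0.859% of all genes tested (limma, smallest adjusted p = 0.311). Of the 19, 1 had an unadjusted p under 0.05: Hoxa5, with a difference of 1.36 ± 0.47 (adjusted p = 0.311).

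**Figure D4:**
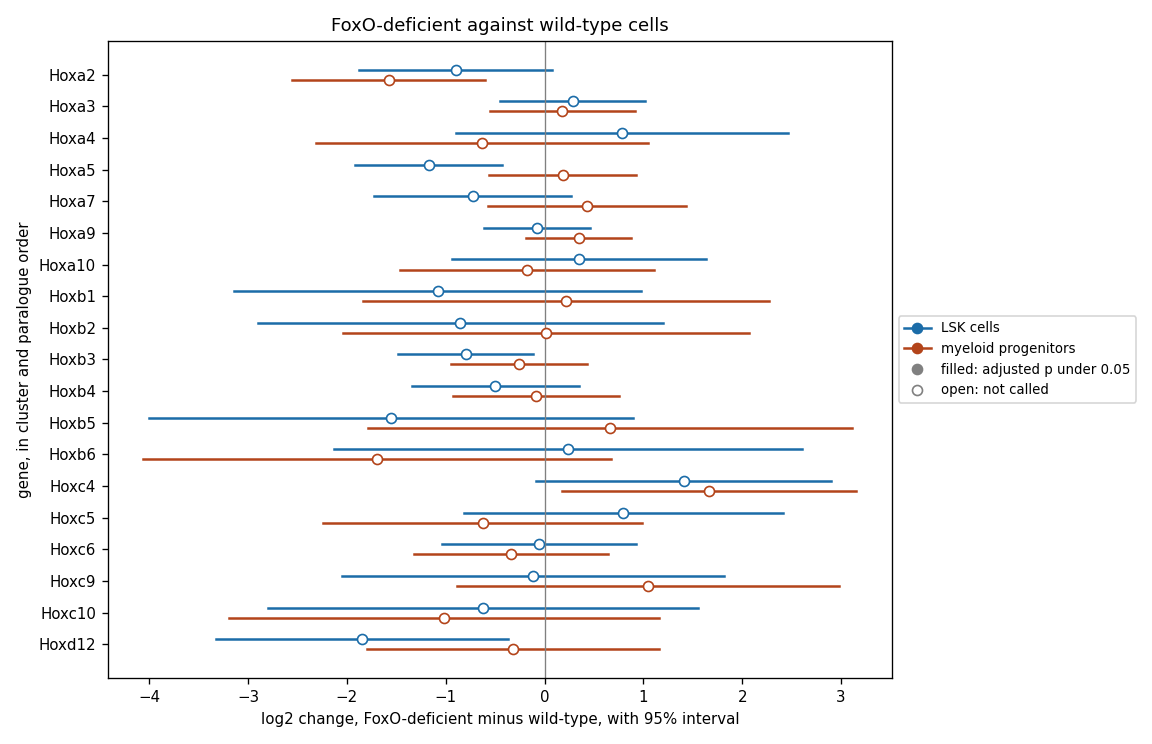
Points are log2 changes from wild-type to FoxO-deficient cells for the 19 Hox genes tested, in LSK cells (blue) and myeloid progenitors (red), with lines for the 95% interval. All points are open, since 0 passed the test in either cell type, and the interval is narrowest for Hoxa9 (-0.61 to 0.46 in LSK cells).

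The cofactors that bind DNA with Hox proteins, the Pbx, Meis and Pknox families, were partly lower in myeloid progenitors. Of 9 genes 7 were tested, and in wild-type cells 2 fell, Meis1 and Pbx3, and 1 rose, Pbx4, where 11.5% of all genes tested were lower and 9.95% higher. The median log2 change was -0.12 over the list and 0.02 over all genes. Meis1, the partner of Hoxa9, read 198, 206 and 204 in wild-type LSK cells, 123, 155 and 110 in deficient LSK cells, 49.2, 41.4 and 50.7 in wild-type myeloid progenitors and 85.7, 76.9 and 61.6 in deficient ones. The 4 groups did not overlap, and the deficient arrays lay between the wild-type ones. Meis1 fell between cell types by -2.11 ± 0.19 in wild-type cells (adjusted p = 6.34e-05) and by -0.79 ± 0.19 in deficient cells (adjusted p = 0.0145). The deficient call was lost without normalization (adjusted p = 0.0917), without array 5 (0.0576) and without array 12 (0.06). The FoxO differences of -0.66 in LSK cells and 0.66 in myeloid progenitors did not pass (adjusted p = 0.238 and 0.133), nor did the difference between them (1.32, adjusted p = 0.0553).

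Pbx3 read 203, 255 and 203 in wild-type LSK cells, 109, 115 and 127 in deficient LSK cells, 114, 115 and 93.8 in wild-type myeloid progenitors and 77.5, 58.3 and 65.8 in deficient ones. It fell between cell types by -1.03 ± 0.17 in wild-type (adjusted p = 0.00248) and -0.81 ± 0.17 in deficient cells (adjusted p = 0.0093). Without normalization neither passed (adjusted p = 0.0967 and 0.116), and with only the wild-type arrays the first did not (adjusted p = 0.0508). Its FoxO differences of -0.91 and -0.68 did not pass (adjusted p = 0.0913 and 0.0926), although in both cell types every deficient array was below every wild-type array. Pbx4 rose in wild-type cells from 9.02 to 29.5 (1.71 ± 0.45, adjusted p = 0.0239), with wild-type LSK cells above background on 2 of 3 arrays, and it no longer passed when array 7, 8 or 9 was left out (adjusted p = 0.0573, 0.0769 and 0.0533), without normalization (0.101) or with only the wild-type arrays (0.0932). Pknox1 read 342, 9.21 and 332 in wild-type LSK cells, so array 2 alone was low, and it did not pass in any comparison.

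Of 16 chromatin regulators that keep Hox genes on or off, all tested, 1 fell between wild-type cell types and 2 between deficient ones, and none rose, where 11.5% and 9.39% of all genes tested were lower. Mllt3, of the complex that recruits Dot1l, fell in wild-type cells from 419 to 241 (-0.80 ± 0.19, adjusted p = 0.0155) and in deficient cells from 272 to 136 (-1.0 ± 0.19, adjusted p = 0.00505). In wild-type cells it no longer passed with 75th-percentile scaling (adjusted p = 0.0554), without normalization (adjusted p = 0.144), with only the wild-type arrays (adjusted p = 0.132) or without array 7 (adjusted p = 0.0557). Kmt2a itself read 1264, 601 and 1285 in wild-type LSK cells, where array 2 alone was low, and 705, 571 and 585 in wild-type myeloid progenitors. Its means of 992 and 618 there gave a change that did not pass (-0.68 ± 0.27, adjusted p = 0.106). In deficient cells the means were 800.1 and 599 (-0.42, adjusted p = 0.332). The Polycomb genes Ezh2, Eed, Suz12, Bmi1, Rnf2 and Ring1, which keep silent genes silent, did not pass in any comparison. Dot1l read 646, 72.9 and 701 in wild-type LSK cells, where array 2 alone was low, and passed in no comparison.

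Kdm6b, a demethylase that removes the Polycomb mark, was the only 1 of these genes with a FoxO call. It read 5160, 3720 and 5355 in wild-type LSK cells, 5020, 5005 and 5248 in deficient LSK cells, 3926, 3796 and 3458 in wild-type myeloid progenitors and 1587, 1560 and 1429 in deficient ones. The deficient myeloid progenitor arrays were the lowest of the 12 and did not overlap with any group. In myeloid progenitors it fell with FoxO deficiency by -1.29 ± 0.17 (adjusted p = 0.0039), and from deficient LSK cells to deficient myeloid progenitors by -1.74 ± 0.17 (adjusted p = 8.25e-05). The first call was lost without normalization (adjusted p = 0.0644), and its probe set is of a kind whose probes can also match other transcripts. In LSK cells the FoxO difference was 0.12 ± 0.17 (adjusted p = 0.772). Of the Cdx genes, which act upstream of Hox genes in the embryo, Cdx1 alone of 3 was tested, and it did not pass. Its group means, from 1.54 to 3.68, were below the lowest background limit. Single arrays were above their limit, 0 of 3 in wild-type LSK cells and 1 of 3 in each other group.

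Genes reported as bound or activated by Hoxa9 and Meis1 were mostly lower in myeloid progenitors. Of 8, all tested, 6 fell and 1 rose in wild-type cells, and 5 fell and 1 rose in deficient cells, where 11.5% and 9.39% of all genes tested were lower and 9.95% and 10.2% higher. The median log2 changes were -0.79 and -0.80, against 0.02 and 0.11 over all genes. The list was chosen with earlier results of these data known, and a part of Hoxa9 or Meis1 in these changes was not tested. Flt3, the receptor kinase, fell from 115 to 36.4 in wild-type cells (-1.66 ± 0.38, adjusted p = 0.0134, or -2.18 without array 2) and from 248 to 29.3 in deficient cells (-3.08 ± 0.38, adjusted p = 0.000436), and it also stands on the LSK marker list. Its wild-type call was lost without normalization (adjusted p = 0.0842), with only the wild-type arrays (adjusted p = 0.103) and without array 9 (adjusted p = 0.0504). Id2, an inhibitor of helix-loop-helix factors, fell from 161 to 66.5 (-1.28, adjusted p = 0.00123) and from 253 to 79.8 (-1.66, adjusted p = 0.000247). Erg, a stem cell transcription factor, fell from 178 to 20.2 (-3.14 ± 0.29, adjusted p = 8.41e-05) and from 62.1 to 31.1 (-0.998 ± 0.29, adjusted p = 0.0375). The latter passed in 11 of 21 alternatives, with adjusted p from 0.00219 to 0.12, and was lost without any 1 deficient array or array 7. Without array 1, where another probe set stands for Erg, the changes were -2.17 and -1.90.

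Sox4 and Lmo2, both transcriptional regulators of progenitors, fell in wild-type cells by -0.74 (adjusted p = 0.0339) and -0.72 (adjusted p = 0.00327) and in deficient cells by -1.20 (adjusted p = 0.0036) and -0.60 (adjusted p = 0.00908). The wild-type call of Sox4 passed in 9 of 21 alternatives, with adjusted p from 0.000355 to 0.328, and its deficient call was lost without normalization (adjusted p = 0.0566). The Lmo2 calls were lost without normalization (adjusted p = 0.163 and 0.253), the wild-type one also with only the wild-type arrays (0.0932) and the deficient one with 75th-percentile scaling (0.092). Cdk6, a cell cycle kinase, rose from 660 to 1218 in wild-type cells (0.88 ± 0.15, adjusted p = 0.00259) and from 992 to 1596 in deficient cells (0.69 ± 0.15, adjusted p = 0.01). The first was lost with only the wild-type arrays (adjusted p = 0.0683) and the second without normalization (adjusted p = 0.0827). Bcl2, which blocks cell death, fell in wild-type cells only just past the threshold (-0.84 ± 0.26, adjusted p = 0.0494), a call that 6 of 21 alternatives kept (adjusted p from 0.0195 to 0.22) and that was -0.48 without array 2, and Myb did not pass (0.38, adjusted p = 0.132). FoxO deficiency gave 0 calls among the 8 in LSK cells and 0 in myeloid progenitors.

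**Figure D5:**
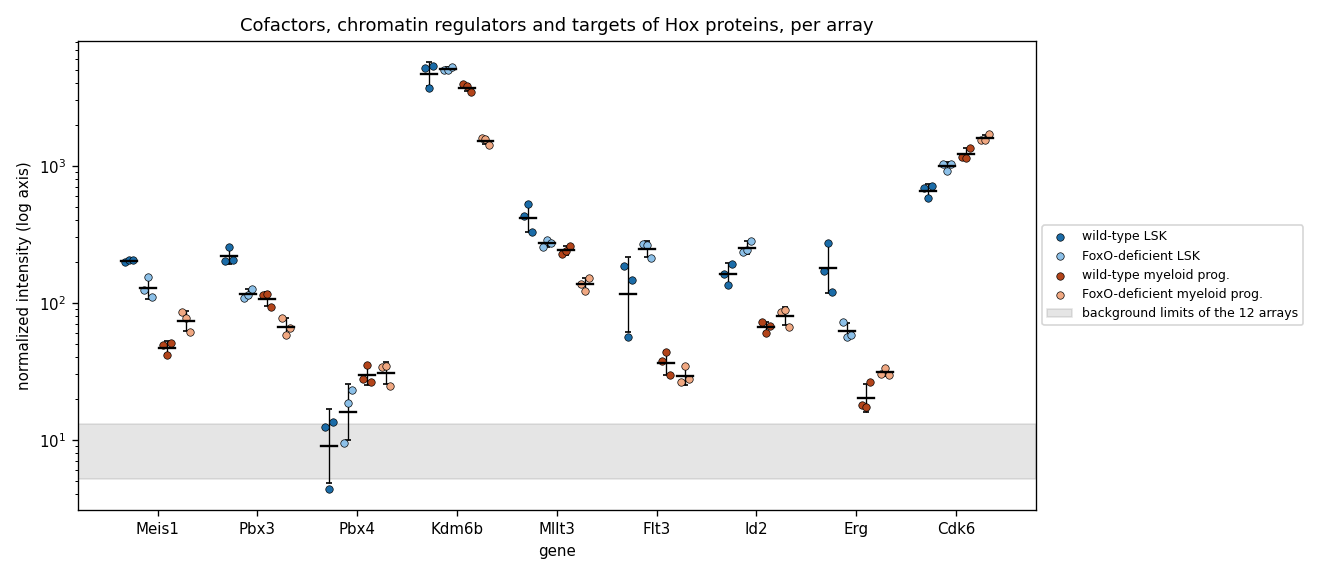
Points are normalized intensities (log axis) on single arrays of cofactors (Meis1, Pbx3, Pbx4), chromatin regulators (Kdm6b, Mllt3) and reported targets (Flt3, Id2, Erg, Cdk6), coloured by group, with the bar at the antilog of the mean log2 value, whiskers of 1 SD of the 3 log2 values and the background limits in grey. The deficient myeloid progenitor arrays of Kdm6b (1429 to 1587) lie below all others, and Meis1 of the deficient groups lies between the wild-type groups.

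Markers of cell identity moved with the Hox genes between the cell types. Of 11 LSK markers 9 were tested, and 8 fell and 0 rose from wild-type LSK cells to myeloid progenitors, with summed levels of 6613 to 7102 and 1504 to 1636. The myeloid progenitor markers had 9 of 10 higher and 0 lower, with sums of 6930 to 7251 and 22973 to 23193. Of all genes tested in this comparison, 11.5% were lower and 9.95% higher. FoxO deficiency gave lower calls for 1 of 9 LSK markers in each cell type and for 1 of 10 myeloid progenitor markers in LSK cells. Of all genes tested, 0.146% were lower with FoxO deficiency in LSK cells and 1.09% in myeloid progenitors. Stroma also expresses Hox genes. Of its 9 markers 4 were above background on all 3 arrays in wild-type LSK cells, 3 in deficient LSK cells, 1 in wild-type and 3 in deficient myeloid progenitors. Stroma sums ran from 146 to 358, 154 to 197, 46.1 to 73.1 and 92.2 to 115 in these groups. Of 6 stroma markers tested, 3 fell in wild-type and 1 in deficient cells, where 11.5% and 9.39% of all genes were lower. The stroma markers Lepr and Pdgfra were not above background on any array, and Col1a2 read 57.6, 154 and 50.3 on wild-type LSK arrays 1, 2 and 3. Endothelium sums were 112 to 268, 202 to 211, 57.3 to 91.9 and 63.9 to 93.1, and Emcn, also found on stem cells, was called lower in myeloid progenitors in both genotypes. Of 4 mature B cell markers 1 was above background on all 3 arrays in each group, and of 4 T and NK cell markers 0. The part of these cells in the Hox differences was not tested.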

How the data were processed

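Biotin-labelled cDNA made with NuGEN Ovation kits from RNA of sorted cells was hybridised to Affymetrix MOE430_2 arrays, per the labels' protocols. The authors deposited linear intensities, 1 per probe set and array; the summarisation software and any scaling by the authors are not given in the sources used here. Here 0.6, the 10th percentile of all values, was added, log2 was taken and arrays were quantile-normalized; the deposited intensities became log2 values in this way. Printed intensities are antilogs of these values, and group means are antilogs of mean log2 values. Of 45101 probe sets, 64 were controls, 34945 had 1 gene symbol, 932 several and 9160 none. For 34741 the gene identifier was found in RefSeq (GRCm38.p6), and the symbol given there was used, whether or not it differed. Probe sets above the 40th percentile of their array on at least 3 arrays were kept, and the brightest on average stood for its gene. All 12 arrays were fitted with limma 3.58.1 (R 4.3.3) as 4 group means with 8 residual degrees of freedom, and p-values were adjusted over 13732 genes by Benjamini-Hochberg, with calls at an adjusted p under 0.05. Scripts were tested on simulated data. The number of arrays limits the precision. Alternatives were 75th-percentile scaling, no normalization, offsets of 8 and 32, other filters, each probe set on its own, only the groups compared, array weights and leaving out each array. Values per array are given for Hox genes above background on all 3 arrays of a group or called. Of the other lists, called genes are named, with at most 4 others of the largest change. The members and lists were chosen with earlier results of these data known.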

Additional observations from a re-analysis of the deposited data

Results flagged for a closer look

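In Kdm6b, the FoxO difference in myeloid progenitors minus that in LSK cells was -1.41 ± 0.24 on the log2 scale (limma adjusted p = 0.0252), so the FoxO changes of the cell types differed by the test of the difference itself. It passed in 9 of 20 alternatives, with adjusted p from 0.00123 to 0.246, and was lost without any 1 array other than 1, 2 and 3. The arrays behind it read 1429 to 1587 in deficient myeloid progenitors and 3458 to 3926 in wild-type ones.

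In Erg, a reported target of Hoxa9 and Meis1, the same difference was 2.14 ± 0.41 (limma adjusted p = 0.0496). Without wild-type LSK array 1 it was 0.26 (adjusted p = 0.81), where another probe set of Erg represents the gene. It passed in 7 of 20 alternatives, with adjusted p from 0.0113 to 0.81.

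Hoxb5os, the opposite-strand RNA at Hoxb5, has a probe set outside the Hox symbols and was above background on all 3 arrays of both LSK groups. Its mean was 93.9 in wild-type LSK cells and 40.7 in FoxO-deficient LSK cells. It was above background on 1 of 3 arrays of wild-type myeloid progenitors and on 0 of 3 of deficient ones. It was lower in wild-type myeloid progenitors than in wild-type LSK cells (limma adjusted p = 0.0128), with no fold given since 2 of 3 arrays there were not above background. In deficient cells it was at least 4.39-fold lower, and the full log2 change tested was -4.84 (limma adjusted p = 0.00801). The FoxO difference of -1.21 in LSK cells did not pass (adjusted p = 0.637).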

How the results depend on the processing

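The number of Hox genes called stayed within 6 to 8 between wild-type cell types and within 6 to 7 between deficient cell types when each array was left out in turn, and within 6 to 8 and 5 to 8 under the other alternatives. For FoxO deficiency it was 0 in LSK cells and in the difference between cell types under every alternative run. In myeloid progenitors it was 0 without any 1 array and 1 with array weights (Hoxa2, below background in both groups). The number of Hox genes above background ranged from 10 to 15 in LSK groups and from 7 to 9 in myeloid progenitors. No named gene's called value changed sign. An offset of 32 gave Hoxa2 changes of -0.67 and -0.45, both still called. Without normalization the median of all genes moved to 0.24 for FoxO deficiency in LSK cells, 0.17 in myeloid progenitors and 0.12 between wild-type cell types. No paired analysis was possible because the array numbers in the labels run from 1 to 12 and no number occurs in more than 1 group. Signal near background limits what can be said of clusters C and D.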
